A study of Schmidtea mediterranea with 2 samples.

Results

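A set of 100 genes that were detected in more trunk cells than any others was described in single cells of Schmidtea mediterranea, a freshwater flatworm (planarian). The genes were taken from the control library, where each of 4540 cells was reduced to 400 randomly drawn unique molecular identifiers (UMIs, each standing for 1 captured mRNA molecule), and the 100 genes with a UMI in the largest share of those cells were kept out of 22016 annotated features. Genes used by nearly all animal cells commonly encode ribosomal proteins, translation factors, the cytoskeleton and the enzymes of energy supply, and together they take up a large part of a cell's mRNA. In planarians the cells of a body region range from dividing stem cells to fully differentiated types, which can differ in how much of their mRNA such genes hold. The deposited tables name genes by identifier and carry no symbols, so the 100 genes were given no names or functions and no class of cells was named as a cell type.

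The study compared cells from the trunks of animals of the background labelled CIW4 under 2 treatments, control RNAi and FoxA RNAi. In RNAi the animals receive double-stranded RNA that matches a transcript and lowers it, and foxA encodes a forkhead transcription factor known in planarians for its part in forming the pharynx, which lies in the trunk. Each treatment was represented by 1 library, made from the pooled trunks of 50 animals, from which live nucleated cells had been sorted by a DNA dye and a viability dye. The duration of RNAi was not given in the sources used here, the foxA transcript was not analysed here because no identifier is paired with it, and the trunk origin could not be checked against marker genes for the same reason. With 1 library per treatment no test between treatments was possible, and no p-value is given. The intervals given are at the 95% level and describe counting error alone, so differences among animals or among preparations are not in them. Intervals of UMI shares, levels and ratios also leave out the spread between cells.

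The control library held 6056 cell barcodes with 4329019 UMIs, and the foxA library held 6798 barcodes with 7852495 UMIs. A floor of 200 genes and 400 UMIs left 4540 control cells and 6781 foxA cells. The floor left out 24.1% of the control cells with at least 200 genes and 0 of the foxA cells, whose lowest total was 440 UMIs. The median depth of the kept cells was 675 UMIs for the control and 904 UMIs for foxA, so all levels below were measured at 400 UMIs per cell in both. The libraries shared 11 cell barcodes among the kept cells. Levels are given as CPM, the UMIs of a gene scaled to a common total of 1000000, after summing over cells. They come from 3′ end counts and were not divided by transcript length.

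SMESG000050880.1 was the most widely detected gene, with a UMI in 96.7% of control cells (96.1% to 97.2%) and 94.0% of foxA cells (93.4% to 94.5%). SMESG000040632.1 followed with 91.4% of control cells and 88.6% of foxA cells. SMESG000016791.1 was found in 83.8% of control cells (82.7% to 84.8%) and 74.8% of foxA cells (73.7% to 75.8%). After these leading genes the shares fell quickly. The genes of rank 4 to 10, SMESG000061099.1, SMESG000061164.1, SMESG000003538.1, SMESG000042430.1, SMESG000030694.1, SMESG000071533.1 and SMESG000059283.1, were detected in 71.9% down to 62.3% of control cells. The median over the 100 genes was 35.4% of control cells and 33.3% of foxA cells, and 15 of the 100 were detected in more than 50% of the control cells. Most members left no UMI in the majority of cells at this depth.

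The list ended within a gradual slope and not at a gap. SMESG000077214.1, SMESG000031033.1 and SMESG000001806.1, the last genes inside, were detected in 26.1%, 26.0% and 25.7% of control cells. SMESG000045448.1, SMESG000009232.1 and SMESG000078736.1, the first genes outside, were detected in 25.4%, 25.2% and 25.2%. The intervals of these 6 genes overlapped, with that of SMESG000001806.1 at 24.4% to 27.0% and that of SMESG000045448.1 at 24.1% to 26.7%.

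Free RNA in the droplets can leave a UMI of a gene in cells that do not express it. Class markers, described below, gave a scale for this. In control cells positive for another marker, a given marker had a UMI in 0.112% to 2.58% of the cells, and in foxA cells in 0% to 2.64%, where 0 of 2406 cells held SMESG000043649.1 (exact upper bound 0.153%). The highest of these values belonged to SMESG000036375.1, the marker with the widest detection (rank 125). The lowest detection among the 100 genes was 25.7% for the control and 20.9% for foxA. All markers were less widely detected than the 100 genes, so their values set no bound on free RNA from the members. The part of free RNA in the detection of the 100 genes was not tested.

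The 100 genes held 19.1% of all UMIs in the control library (19.0% to 19.1%) and 17.2% in the foxA library (17.1% to 17.2%). The first gene alone held 1.56% of control UMIs, the first 10 genes held 6.43% and the first 50 held 13.7%. A control cell showed a median of 43 of the 100 genes among its 400 UMIs (quartiles 27 and 51), and a foxA cell showed 40 (quartiles 27 and 48). The level of a single member ranged from 790.2 CPM to 15557 CPM in the control library, with a median of 1365 CPM.

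Cells differed in this share far beyond counting error. Across control cells the share ran from 7.75% at the 5th percentile through a median of 19.5% to 32% at the 95th percentile. The SD between cells was 8.05 percentage points, 4.09 times the 1.96 points that drawing 400 UMIs from 1 common pool would give. The SD of foxA cells was 7.07 points, 3.75 times the counting value. The distribution had 2 humps in the control library, while in the foxA library the lower hump was slight. In the control library 8.99% of cells fell in the bin from 8% to 10%, fewer (5.99%) in the bin from 16% to 18% and more again (11.9%) in the bin from 22% to 24%. In the foxA library the percentage of cells fell only from 9.28% (bin from 10%) to 8.48% (bin from 14%) before it rose. Its upper hump lay lower than that of the control, with 12.1% of cells in the bin from 18% to 20%. Cells with over 20% of their UMIs in the 100 genes made up 46.9% of the control library and 33.4% of foxA cells, whereas cells under 10% made up 14.5% and 16.2%.

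**Figure D1:**
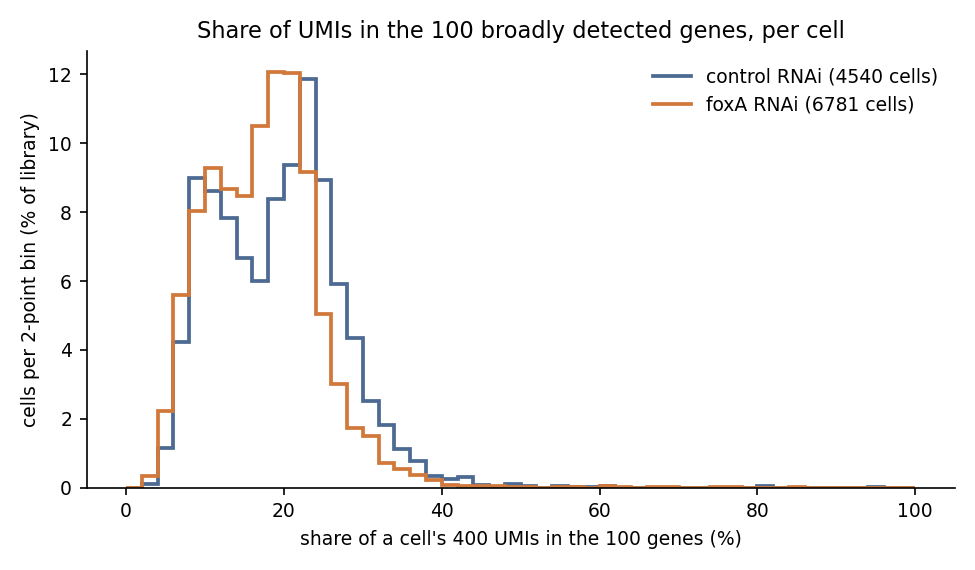
Share of each cell's 400 UMIs that fell in the 100 genes (x axis, in %) against the percentage of a library's cells in each bin of 2 percentage points (y axis). The control shows a lower hump near 10%, which is slight for foxA, and the upper hump peaks in the bin from 22% for the control and from 18% for foxA.

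To ask which cells held a low or a high share, cells were grouped by 10 marker genes known from earlier results on these libraries, none of which is among the 100 genes. A cell was placed in a class when it had at least 2 UMIs of exactly 1 marker among its 400 UMIs. This left 7 classes of at least 50 cells among control cells and 8 among foxA cells, of which 6 occur in both. Most cells, 2754 under control RNAi and 4375 under foxA RNAi, had no marker at this depth. Cells positive for several markers, 25 and 21, were left out of the classes. Cells of a class come from 1 library and are not replicates, so the classes are described without a test.

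The share of UMIs in the 100 genes differed by 17.3 percentage points between the highest and lowest classes of the control library. The members were chosen by detection over all control cells, which favours genes of the classes with more cells. Cells positive for SMESG000024991.1 had the highest share, 26.7% (26.5% to 26.9%, 338 cells). Cells positive for SMESG000036375.1 came next with 23.8% (23.6% to 24.0%, 584 cells), ahead of those with SMESG000029602.1 at 20.5% (20.3% to 20.8%, 294 cells). The share was 16.5% in SMESG000043649.1 cells (16.1% to 16.9%, 85 cells). Below these stood SMESG000019976.1 cells at 13.9% (13.6% to 14.3%, 97 cells) and SMESG000002628.1 cells at 13.3% (13% to 13.5%, 148 cells). The SD between cells was 3.82 and 4.59 times the counting value in these classes, so the intervals do not settle their order. SMESG000075230.1 cells had the lowest share, 9.36% (9.15% to 9.57%, 186 cells). Between the highest and the lowest class even the quartiles over cells stood apart, at 23.2% and 29.9% against 7.50% and 10.8%.

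The foxA library gave the same order of the 6 shared classes. The share was 24.2% in SMESG000024991.1 cells, 21.2% in SMESG000036375.1 cells, 19.4% in SMESG000029602.1 cells, 12.4% in SMESG000019976.1 cells, 11.7% in SMESG000002628.1 cells and 8.59% in SMESG000075230.1 cells. Cells positive for SMESG000017804.1 and SMESG000075928.1, which reached 50 cells in the foxA library alone, had 11.2% (106 cells) and 12.3% (61 cells). The median depth before thinning, in the order of falling share, was 702.5, 695, 1109, 666, 623, 799 and 582.5 UMIs per cell in the 7 control classes. It was highest in SMESG000029602.1 cells and lowest in the class with the smallest share, and apart from SMESG000029602.1 and SMESG000002628.1 cells it fell with the share. Its part in the class order was not tested.

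**Figure D2:**
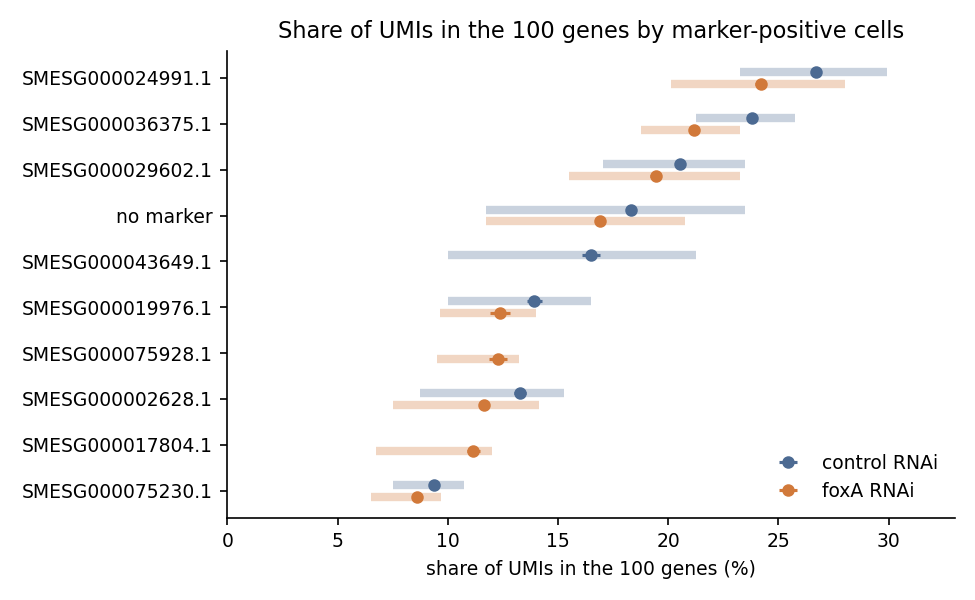
Share of UMIs in the 100 genes (x axis, in %) for cells positive for exactly 1 class marker and for cells with no marker, with points for the summed cells, thin bars for the 95% counting interval and pale bars for the quartiles over cells. The 6 classes present in both libraries keep their order, from 9.36% and 8.59% in SMESG000075230.1 cells to 26.7% and 24.2% in SMESG000024991.1 cells.

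Most of the 100 genes were not level across classes. In the control library 96 of the 100 stood more than 1.5-fold above or below the other cells in at least 1 class (99.8% of all genes tested did so, so this count does not set the members apart). The ratio of the highest to the lowest class had a median of 16.8-fold (quartiles of the log2 ratio 2.84 and 4.61), or 9.55-fold when a cell counted as positive from 1 UMI of a marker. It was under 2-fold for 4 genes and over 4-fold for 81. In the foxA library the median was 16.7-fold over its 8 classes. Over the 6 shared classes the medians were 16.3-fold and 15.7-fold. The next 400 genes by detection, which are lower and so carry more counting error, had a median of 9.44-fold for the control and 9.72-fold for foxA over those classes. Of the 100 genes 55 were highest in SMESG000024991.1 cells and 23 in SMESG000036375.1 cells, and 71 were lowest in SMESG000075230.1 cells. These counts, and those under 2-fold and over 4-fold, were not made for other genes and do not set the members apart. Of all genes tested 63.8% stood more than 1.5-fold lower in SMESG000075230.1 cells and 18.7% higher.

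The evenest members were SMESG000050880.1, SMESG000003538.1 and SMESG000060017.1. SMESG000050880.1 ranged only from 12355 CPM in SMESG000029602.1 cells to 17500 CPM in SMESG000043649.1 cells, a span of 1.42-fold. SMESG000003538.1 ranged from 2984 CPM to 4341 CPM, or 1.45-fold, and SMESG000060017.1 from 979.4 CPM to 1680 CPM, or 1.71-fold. In the foxA library the spans of SMESG000050880.1 and SMESG000060017.1 were 1.81-fold and 1.85-fold, while that of SMESG000003538.1 was 2.87-fold, with 1926 CPM in SMESG000075928.1 cells.

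The most uneven members were SMESG000077214.1, SMESG000014298.1 and SMESG000023040.1, all near the end of the list. SMESG000077214.1 stood at 1224 CPM in SMESG000036375.1 cells and 13.4 CPM in SMESG000075230.1 cells, where 1 UMI was counted. Its span of 84.9-fold rests on that count. The latter cells held 13 UMIs, or 112 CPM, in the foxA library. SMESG000014298.1 ran from 107.5 CPM in SMESG000075230.1 cells to 7036 CPM in SMESG000019976.1 cells, a span of 64.8-fold, and reached 8426 CPM in the SMESG000019976.1 cells of the foxA library. SMESG000023040.1 ran from 26.9 CPM in SMESG000075230.1 cells to 1494 CPM in SMESG000024991.1 cells, with 34.5 CPM and 1198 CPM in the foxA library.

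Class by class, the members were counted past 1.5-fold against all other kept cells of the control library, beside all 8267 genes with at least 100 thinned UMIs over both libraries. In SMESG000024991.1 cells 61 members were higher and 8 lower, against 14.2% and 47.7% of all genes tested. In SMESG000036375.1 cells 42 were higher and 16 lower, against 28.9% and 42.5%. In SMESG000029602.1 cells 20 were higher and 16 lower, against 6.82% and 69.2%. These 3 classes, with the largest shares, thus had more members higher than lower while all genes leaned the other way. They are also the 3 classes with the most control cells, and the choice by detection over all control cells favours genes of such classes. The part of this choice in the counts was not tested. The next 400 genes by detection also leaned higher in SMESG000036375.1 and SMESG000024991.1 cells, with median log2 ratios of 0.29 and 0.16. Their median was -0.43 in SMESG000029602.1 cells. The members had medians of 0.54, 0.78 and 0.27 in these classes.

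In the other 4 classes more members were lower than higher. SMESG000075230.1 cells had 4 higher and 81 lower, against 18.7% and 63.8% of all genes tested. SMESG000002628.1 cells had 2 higher and 79 lower, against 16.8% and 60.1%. SMESG000019976.1 cells had 5 higher and 72 lower, against 20.2% and 56.0%. In SMESG000043649.1 cells 4 were higher and 31 lower, against 16.7% and 52.9%. The percentages for all genes hold many genes with few counts, which pass the fold easily in small classes.

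Counts in the foxA library were close. SMESG000024991.1 cells had 61 members higher and 8 lower (background 13.1% and 47.3%), SMESG000036375.1 cells 50 and 15 (27.6% and 40.2%) and SMESG000029602.1 cells 26 and 16 (8.01% and 68.3%). Fewer stood higher in SMESG000019976.1 cells, with 9 higher and 69 lower (20.4% and 59.9%), in SMESG000002628.1 cells, with 3 and 75 (15.0% and 58.7%), and in SMESG000075230.1 cells, with 3 and 80 (18.3% and 65.8%). The classes found in that library alone had 3 and 72 in SMESG000075928.1 cells (16.3% and 62.2%) and 2 and 78 in SMESG000017804.1 cells (16.4% and 64.2%).

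The overlap of the list with the 100 most widely detected genes of each class was 84 genes in SMESG000036375.1 cells, 77 in SMESG000024991.1 cells, 62 in SMESG000043649.1 cells and 57 in SMESG000029602.1 cells. In SMESG000019976.1 cells 26 members were among the first 100, in SMESG000002628.1 cells 25 and in SMESG000075230.1 cells 15. The list was drawn from these same control cells, where classes with more cells weigh more. No reference overlap was computed, so these counts are a description. The foxA library gave 15 in SMESG000075230.1 cells as well. In these cells a member was detected in a median of 5.65% of the control cells, against 53.1% in SMESG000024991.1 cells.

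A large group of members was low together in the class with the smallest share. In SMESG000075230.1 cells of the control library 66 of the 100 genes were more than 4-fold lower than in the other cells, a group formed after its values were seen. Of all genes tested 37.7% passed that fold and the next 400 genes in 41.2%. The median of the 66 was 11.8-fold lower (log2 ratio -3.56). In the foxA library, which was not used to form the group, 64 of the 66 were more than 4-fold lower in the same class (background 37.5%), with a median of 11-fold, against 1 of the other 34 members. The 66 include SMESG000061099.1, at 430.1 CPM in SMESG000075230.1 cells and 8048 CPM in SMESG000036375.1 cells, and SMESG000042430.1, at 470.4 CPM and 5377 CPM. In the foxA library SMESG000061099.1 stood at 465.5 CPM and 7592 CPM in these classes, and SMESG000042430.1 at 543.1 CPM and 5705 CPM.

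Summed, the 66 genes held 1.08% of UMIs in SMESG000075230.1 cells (1.00% to 1.15%) and 17.1% in SMESG000024991.1 cells (16.9% to 17.3%) of the control library. The values between were 3.57% in SMESG000002628.1 cells, 6.12% in SMESG000019976.1 cells, 7.45% in SMESG000043649.1 cells, 11.6% in SMESG000029602.1 cells and 16.1% in SMESG000036375.1 cells. The split was made by the control ratio in SMESG000075230.1 cells, so the contrast between the groups in those control cells follows from it. The lowest share of the 66 genes lies in those cells, so their range over classes also follows in part from the split. The other 34 genes held a share that varied less, from 7.71% in SMESG000036375.1 cells (7.60% to 7.82%) to 9.70% in SMESG000002628.1 cells (9.46% to 9.94%), with 8.28% in SMESG000075230.1 cells. That highest value rests on 1 gene, SMESG000030694.1, which alone held 3.27% of UMIs in SMESG000002628.1 cells. Without it the remaining 33 genes had their lowest share in those cells, 6.43% (6.24% to 6.63%), and their highest in SMESG000024991.1 cells, 9.25% (9.10% to 9.41%). In foxA cells the share ran from 0.993% to 15.4% for the 66 genes and from 7.02% to 9.13% for the 34. The latter maximum, in SMESG000017804.1 cells, rests on the same gene, which held 3.20% there. Without it the 33 genes ran from 5.93% in SMESG000017804.1 cells (5.70% to 6.16%) to 8.55% in SMESG000024991.1 cells (8.40% to 8.71%). Single members of the 34 differed between classes in opposite directions, as the extremes below show.

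**Figure D3:**
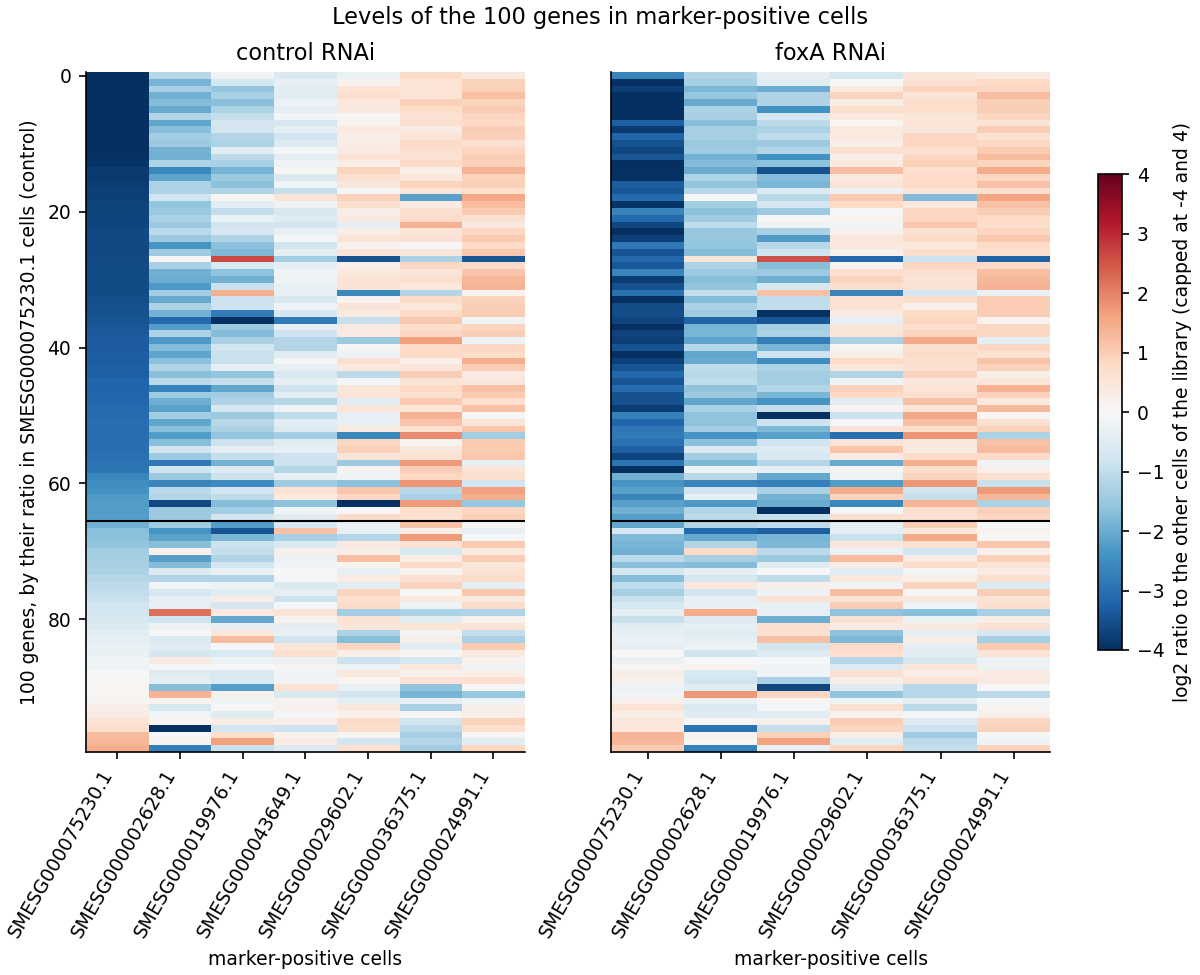
Log2 ratio of each of the 100 genes (rows) in cells positive for 1 class marker (columns) to the other cells of the same library, red for higher and blue for lower, capped at -4 and 4. Rows are ordered by the ratio in SMESG000075230.1 cells of the control library, and the black line divides the 66 genes more than 4-fold lower there from the other 34; the right panel shows the same rows in the foxA library, for its 6 classes shared with the control.

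The member that stood highest and the member that stood lowest differed from class to class. SMESG000024345.1 led in SMESG000036375.1 cells, at 5291 CPM against 1440 CPM in the other control cells (log2 ratio 1.88, 1.78 to 1.98). Its foxA levels were 5206 CPM against 1521 CPM. SMESG000023147.1 was the lowest there, at 342.5 CPM against 1535 CPM (log2 ratio -2.16, -2.50 to -1.84), with 489.1 CPM against 1671 CPM in the foxA library. SMESG000003007.1 led in SMESG000024991.1 cells, at 2833 CPM against 901.4 CPM (log2 ratio 1.65). SMESG000014298.1 was lowest in those cells, at 125.7 CPM against 1354 CPM (log2 ratio -3.42), and was the highest member in SMESG000019976.1 cells, at 7036 CPM against 1137 CPM (log2 ratio 2.63, 2.44 to 2.81).

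Among the 34 genes, SMESG000005505.1 was highest in SMESG000075230.1 cells, at 3333 CPM against 1221 CPM (log2 ratio 1.45, 1.25 to 1.64). It remained higher in these cells of the foxA library, at 1957 CPM against 940.9 CPM. SMESG000005506.1 was low in SMESG000002628.1 cells, with 8 UMIs or 135.1 CPM against 2346 CPM (log2 ratio -4.11, -5.33 to -3.14), and with 255.8 CPM against 1967 CPM in the foxA library. SMESG000058745.1 led in SMESG000029602.1 cells, at 3827 CPM against 1669 CPM. SMESG000024348.1 was lowest there, at 212.6 CPM against 3888 CPM (log2 ratio -4.19, -4.82 to -3.63). This gene, one of the 66, stood below the other cells in 6 of the 7 control classes and reached 9229 CPM in SMESG000036375.1 cells, with 5323 CPM in those of the foxA library.

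In the class without counterpart in the foxA library, SMESG000012332.1 led, at 2500.0 CPM in SMESG000043649.1 cells against 1100 CPM in the other cells (log2 ratio 1.18). SMESG000016237.1 was lowest in this class, with 7 UMIs or 205.9 CPM against 1458 CPM, and also lowest in SMESG000019976.1 cells, with 3 UMIs or 77.3 CPM (log2 ratio -4.23, -6.52 to -2.69).

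Spread over single cells was measured by the Fano factor, the variance of a gene's UMIs over their mean, which is 1 for pure counting. The median over the 100 genes was 1.36 for the control and 1.32 for foxA, and 14 and 13 genes exceeded 2. For the next 400 genes by detection, which are lower in level, the control median was 1.12. Genes past 2 were not counted outside the members, so these counts do not set the members apart. Among the members SMESG000030694.1 stood far above the rest, with 69.5 for the control and 70.2 for foxA. It was detected in 65.4% of control cells with a median of 1 UMI per cell, yet 55 cells (1.21%) with at least 40 of their 400 UMIs from this gene held 43.1% of its UMIs. Among foxA cells 76 (1.12%) held 44.6%. Of these, 15 control cells and 10 foxA cells were positive for SMESG000002628.1. The gene was the highest member in that class, at 32669 CPM against 7021 CPM (log2 ratio 2.22, 2.15 to 2.29), and in the foxA library it stood at 17178 CPM there and at 32028 CPM in SMESG000017804.1 cells.

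The same gene filled the barcodes that the floor of 200 genes removed. It made up 37.4% of the UMIs of the 78 such control barcodes and 75.5% of those of the 17 foxA barcodes, while the other 99 members held 14.5% and 7.85%. Without SMESG000030694.1 the remaining members held 18.3% of the control UMIs and 16.5% of the foxA UMIs, and the SD ratio between cells and counting was 3.96 and 3.55. SMESG000034720.1 was the next most uneven over cells, with Fano factors of 24.8 and 8.52.

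At the same depth the 100 genes held a smaller share of UMIs in the foxA library. The share went from 19.1% to 17.2%, a difference of -1.89 percentage points and a log2 ratio of -0.15 (-0.16 to -0.14). The members were chosen by detection in the control library, which favours genes high in that library. The 100 genes with the widest detection in the foxA library, 91 of which were members, also held less there, with 17.4% against 18.9% in the control library. The 9 members outside the first 100 of the foxA library all lay within its first 138.

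The shift was small for most genes and mostly in 1 direction. Of the 100 genes 77 were lower in the foxA library and 23 higher, against 37.5% lower among all 8267 genes tested and 212 of the next 400 genes by detection. The median log2 ratio was -0.14 (quartiles -0.27 and -0.01), while the median over all genes tested was 0.10 and over the next 400 genes it was -0.01. Past 1.5-fold stood 2 members, both lower, against 11.5% of all genes tested (6.91% higher and 4.62% lower) and 6.5% of the next 400 genes. The count was 6, all lower, with TMM scaling or in cells with at least 500 genes, where the share of all genes past the fold was not computed. The percentages for all genes again hold many genes with few counts, which pass the fold easily. They therefore do not set the members apart as steadier.

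SMESG000005268.1 showed the lowest ratio, at 1125 CPM in the control library (1077 to 1175) and 685.7 CPM in the foxA library (654.9 to 717.6), a log2 ratio of -0.71 (-0.81 to -0.62). It was lower in the foxA library in SMESG000024991.1 cells, from 2714 CPM to 1624 CPM, in SMESG000029602.1 cells, from 1930 CPM to 1225 CPM, and in cells with no marker, from 1083 CPM to 723.4 CPM. In SMESG000002628.1 cells it was at 506.8 CPM and 536.3 CPM, on 30 and 65 UMIs. SMESG000034720.1 was next, at 1275 CPM and 795.2 CPM, a log2 ratio of -0.68 (-0.77 to -0.60). Its UMIs are concentrated, with 27.1% of them in 1% of the control cells, so few cells weigh on this ratio.

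The highest ratios were those of SMESG000078181.1 and SMESG000021174.1, neither of which passed 1.5-fold. SMESG000078181.1 stood at 1374 CPM in the control library (1321 to 1429) and 1827 CPM in the foxA library (1776 to 1878), a log2 ratio of 0.41 (0.34 to 0.48). It was higher in the foxA library in each of the 6 shared classes, for example at 2402 CPM and 3024 CPM in SMESG000036375.1 cells. SMESG000021174.1 stood at 835.9 CPM and 1047 CPM, a log2 ratio of 0.32 (0.23 to 0.42). Its levels were 917.2 CPM and 916.4 CPM in SMESG000024991.1 cells and 925.0 CPM and 1179 CPM in cells with no marker.

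The first 10 genes went from 6.43% of UMIs in the control library to 5.55% in the foxA one. SMESG000050880.1 stood at 15557 CPM under control RNAi and 12974 CPM under foxA RNAi (log2 ratio -0.26), SMESG000040632.1 at 9270 CPM and 7595 CPM (-0.29), and SMESG000016791.1 at 6970 CPM and 4964 CPM (-0.49). SMESG000003538.1 went the other way, from 3373 CPM to 4168 CPM (0.31), and SMESG000042430.1 was level, at 3762 CPM and 3842 CPM (0.03, -0.01 to 0.07). The 66 genes that were low in SMESG000075230.1 cells and the other 34 both held a smaller summed share in the foxA library. Their log2 ratios were -0.17 (-0.18 to -0.16) and -0.13 (-0.14 to -0.12).

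**Figure D4:**
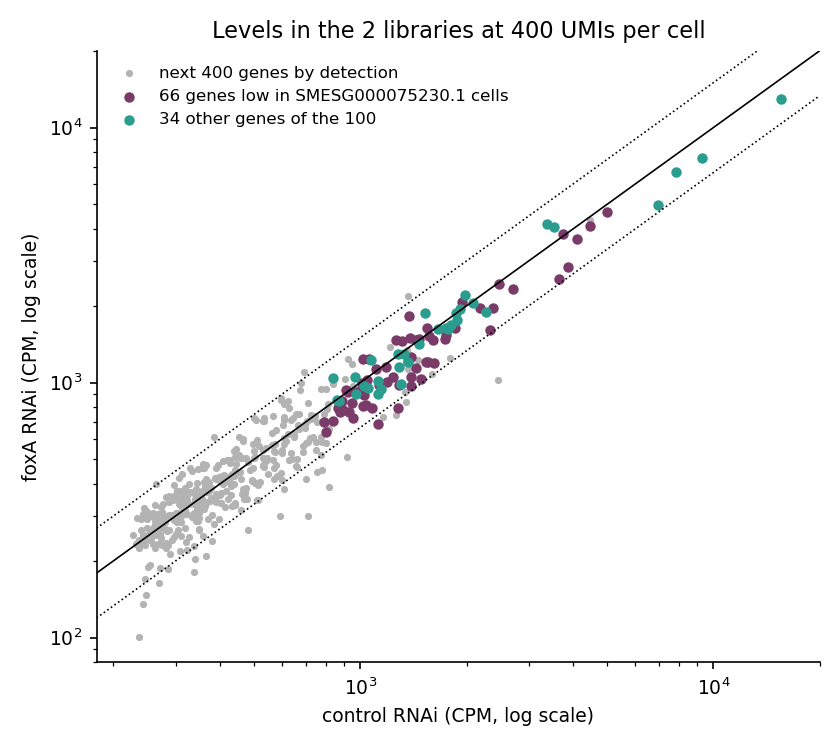
Level of each gene in the control library (x axis) and the foxA library (y axis), in CPM on log scales, for the 66 genes low in SMESG000075230.1 cells, the other 34 of the 100 genes and the next 400 genes. The solid line marks equal levels and the dotted lines 1.5-fold; 77 of the 100 genes lie below the solid line and 2 lie below the lower dotted line.

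Within each of the 6 shared classes the summed share was again lower in the foxA library. The log2 ratio was -0.17 in SMESG000036375.1 cells (-0.18 to -0.15), -0.14 in SMESG000024991.1 cells (-0.16 to -0.12), -0.12 in SMESG000075230.1 cells (-0.17 to -0.08), -0.08 in SMESG000029602.1 cells (-0.11 to -0.05) and -0.17 in SMESG000019976.1 cells (-0.24 to -0.10). In SMESG000002628.1 cells it was -0.19 (-0.23 to -0.15), but the median member ratio there was 0.07. Without SMESG000030694.1 the shares of that class were 10.0% and 9.94%, and the interval of the ratio ran from -0.055 to 0.035. In the 6 shared classes of the control library the SD of the share between cells was 1.81 to 4.59 times the counting value. The intervals of these ratios leave that spread out and are too narrow for it. Cells with no marker had a ratio of -0.12 (-0.12 to -0.11). With the classes found in both libraries weighted to the same cell shares, the ratio was -0.13. SMESG000043649.1 cells, absent from the foxA library, were left out of it. Cells with no marker entered as an undivided group, so differences in their make-up were not evened out.

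By depth before thinning, in control cells the share lay between 18.8% (cells of 400 to 600 UMIs) and 19.8% (800 to 1200 UMIs) in 5 bins of depth, and in foxA cells between 16.8% (2000 UMIs and more) and 17.3% (1200 to 2000 UMIs). In each of the 5 bins the share was lower in the foxA library. The part of depth in the shares was not tested. Control cells below the floor, with at least 200 genes and fewer than 400 UMIs, had 18.1% of their UMIs in the 100 genes. Library preparation and treatment cannot be told apart with 1 library each.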

How the data were processed

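The values analysed are whole-number UMI counts per gene and cell barcode, deposited by the authors without normalization for 1 control and 1 foxA library. Per the file headers, Cell Ranger 6.1.2 produced the matrices, while the submitters' processing notes name version 7. The genome build, annotation and cell-calling settings were not given in the sources used here. Per the labels' protocols, cDNA was digested with 30 guides against 16S ribosomal sequence and amplified for 10 more cycles. The counts cannot show reads shared by near-identical genes.

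Cells with at least 200 genes and 400 UMIs were thinned to 400 UMIs without replacement (seed 0, numpy 2.4.6). Ties in detection were broken by summed UMIs. Library ratios are log2 of CPM + 1 for genes with at least 100 thinned UMIs over both libraries; intervals of ratios are exact conditional binomial intervals without a pseudocount, those of shares are Clopper-Pearson and those of levels Poisson (scipy 1.17.1). Doublets were not called, and cells positive for several markers were left out of the classes. A fold of 1.5 stands in for a test. Named members are the first 10, those just inside and outside the list, the 2 highest and 2 lowest ratios between libraries, the extremes of each class and the 3 evenest and 3 most uneven. Others were named after their values were seen. The members, markers and lists were chosen with earlier results of these data known. The ratio step was tested on simulated data. TMM factors came from edgeR 4.0.16.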

Additional observations from a re-analysis of the deposited data

How the results depend on the processing

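No paired analysis was possible because there is a single library per treatment. Leaving out a replicate was not possible either. The share of control UMIs, 19.1%, was 18.9% at 300 UMIs per cell, 19.2% at 600, 18.9% in cells of 400 to 800 UMIs, 19.4% in cells with at least 500 genes, 13.7% and 26.3% for the first 50 and 200 genes, 18.9% for genes chosen in the foxA library and 18.3% without SMESG000030694.1, a setting added after the data were seen. The foxA share was 17.1% at 600 UMIs and with at least 500 genes, 12.2% and 24.1% for 50 and 200 genes, 17.4% for genes chosen in the foxA library and 16.5% without SMESG000030694.1. The log2 ratio of the shares stayed below 0 in every setting run. It was -0.13 at 300 UMIs, -0.17 at 600, -0.14 in cells of 400 to 800 UMIs, -0.18 with at least 500 genes, -0.17 and -0.12 for 50 and 200 genes, -0.12 for genes chosen in the foxA library, -0.22 with TMM, -0.21 with median-of-ratios factors, -0.18 against UMIs outside the members and -0.13 with weighted classes. The median member ratio was -0.075 at 300 UMIs, -0.20 with TMM and -0.20 with median-of-ratios factors, and no setting moved it above 0. The number of members past 1.5-fold was 1 at 300 UMIs, 4 at 600, 6 with at least 500 genes, 6 with TMM, 5 with median-of-ratios factors, 0 and 9 for 50 and 200 genes and 0 for genes chosen in the foxA library. For the other depths, cell filters and scalings the share of all genes past that fold was not computed. The range of class shares, 17.3 points, was 15.4 with markers counted from 1 UMI, 18.3 from 3 UMIs, 16.9 with cells of several markers kept and 16.3 with markers read in the whole cell. The median log2 span over classes, 4.07, was 3.26, 4.40, 3.62 and 3.70 in these 4 settings. The cause of these moves was not tested. Among 406 values for the 29 named members, 14 changed sign, all for 5 members whose main ratio did not pass 1.5-fold. The filters on low genes left the members' values as they were, since all 100 passed each of them, and moved the share of all genes past 1.5-fold to 18.3% with at least 20 UMIs and 27.4% with no filter. Counts of 1 to 8 UMIs in a class limit what can be said of the lowest members there.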
